A study of Mus musculus with 4 samples.

Results

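The genes described here encode the enzymes, activators, inhibitors and transfer proteins that make, interconvert and degrade sphingolipids. They were taken from a list of 42 gene symbols without the ceramide synthases, and 40 of the 42 had values among the 12967 gene symbols of the table. Sptlc3 and Degs2 were not analysed here. The 40 genes held 81 transcript rows, which were summed per symbol, and 25 genes had 1 row. A mean of at least 5 CPM (counts adjusted for library size) over the 4 libraries was required for comparison. That minimum was met by 37 of the 40 genes, and the other 3, Acer2, Sgpp2 and Smpd3, are described by their levels alone.

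Sphingolipids are built on a long-chain base made in the endoplasmic reticulum from serine and palmitoyl-CoA. N-acylation gives ceramide, which is turned into sphingomyelin or glycosphingolipids in the Golgi apparatus or cleaved to sphingosine, whose phosphate is a secreted signal. Complex sphingolipids return to the lysosome, where hydrolases and small activator proteins dismantle them step by step, and in tumour cells ceramide and sphingosine 1-phosphate are known for opposing effects on survival.

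The study asked which mRNAs are recovered with Caprin-1, which binds RNA in stress granules, in cells of altered lipid metabolism. The cells were 4T1, a mouse mammary carcinoma line, grown with puromycin and stably expressing either the control shRNA labelled SCR (shSCR) or one that targets ceramide synthase 4 (shCerS4). RNA was precipitated from each line with anti-Caprin-1 antibody or with IgG as background control, and polyadenylated RNA was sequenced. This gave 4 groups of 1 library each, an IgG and a Caprin-1 precipitate from the shSCR line and the same from the shCerS4 line. Whether a line was 1 clone or a pool is not given in the sources used here, and neither a line without shRNA nor unprecipitated RNA was analysed here.

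With 1 library per group there is no replicate check and no significance test. Each log2 ratio is given with its 95% counting interval, which covers counting error between these libraries only. A gene was counted as 2-fold higher or lower when its ratio reached 2-fold and its interval excluded 0. Cers4 itself was not analysed here, so the shRNA label was not checked against its target. In bulk RNA, fewer cells with an mRNA and less of it per cell cannot be told apart.

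The estimated depth was 19.7 to 27.0 M reads per library, and 3 reads corresponded to 0.111 to 0.152 CPM. The 8 epithelial markers listed for 4T1 cells all passed 5 CPM, with summed levels of 5066 to 9985 CPM. Of the fibroblast markers, 4 of 6 had rows, with summed levels of 20.7 to 65.7 CPM. Of the leukocyte markers, 2 of 6 had rows (15.4 to 49.1 CPM, nearly all Cd68), and of the endothelial markers 1 of 4 (0.666 CPM in shSCR IgG and 0 in the other libraries). Within the epithelial markers, Krt8 and Krt18 were lower and Cldn4, Cdh1 and Esrp1 higher in shCerS4 within either precipitate. Krt8 read 1892 and 2790 CPM in shSCR IgG and Caprin-1 and 868 and 1136 CPM in shCerS4. Cldn4 read 237 and 318 CPM in shSCR against 1027 and 1488 CPM in shCerS4, and Esrp1 11.8 and 8.99 against 88.0 and 72.04 CPM. Cd68 read 25.9 and 49.1 CPM in shSCR and 14.9 and 14.6 CPM in shCerS4. The part of such marker differences in the results below was not tested.

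The first comparison was shCerS4 over shSCR, made separately in the Caprin-1 and in the IgG precipitates, which share no library but come from the same pair of lines. Genes of sphingosine phosphate turnover and most lysosomal genes were higher in the shCerS4 libraries, while most genes of de novo synthesis were slightly lower. The median log2 ratio of the 6 ceramidase and sphingosine phosphate genes was 0.83 in the Caprin-1 and 0.72 in the IgG precipitates. For the 10 lysosomal genes it was 0.56 and 0.39, and for the 10 de novo genes -0.17 and -0.24. The median of all 10283 genes compared was 0.15 in the Caprin-1 and 0.10 in the IgG precipitates. The 37 sphingolipid genes together had a median of 0.36 and 0.09.

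In the Caprin-1 precipitates 4 of the 37 genes were at least 2-fold higher in shCerS4 (Sphk1, Sgpl1, B4galt6 and Hexa), where 6.25% of all genes compared were. None was 2-fold lower, where 4.95% of all genes were, although the most abundant row of Smpd4 alone was (-1.51). In the IgG precipitates 4 were 2-fold higher (Asah2, Sphk1, B4galt6 and Hexa) beside 5.69% of all genes, and none was lower beside 5.34%. Counting intervals lay above 0 in both precipitates for 18 genes (48.6%, against 39.8% of all genes) and below 0 in both for 9 (24.3%, against 23.8%). The last of these shares was close to that of all genes. B4galt6 passed the 5 CPM minimum only through the shCerS4 libraries, where it was high. A filter of 20 CPM leaves out B4galt6 and Asah2, among others. With it, 3 of 32 genes were 2-fold higher in the Caprin-1 and 2 of 32 in the IgG precipitates. Of all 7727 genes with that filter, 353 and 297 were.

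**Figure D1:**
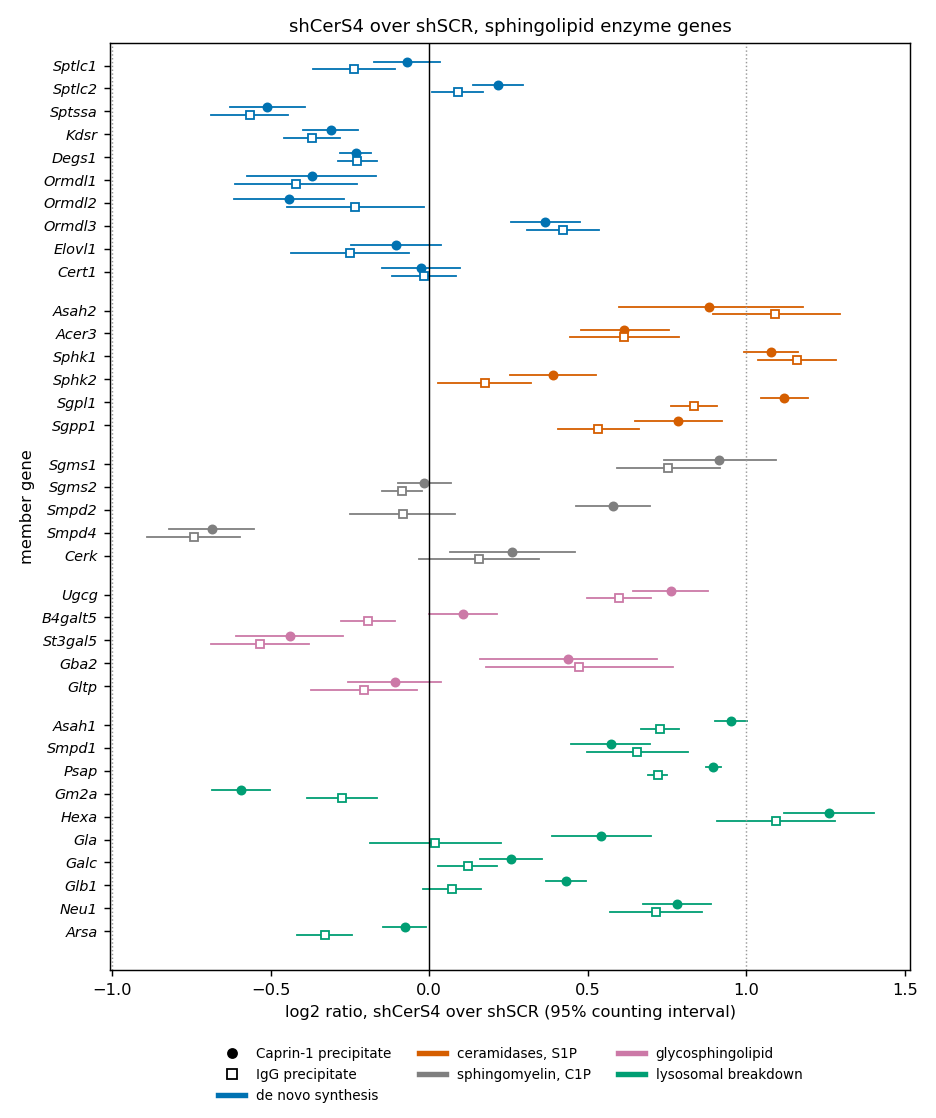
Log2 ratio of shCerS4 over shSCR (x axis) for 36 of the 37 genes compared (y axis, grouped and coloured by step), with filled circles for Caprin-1 and open squares for IgG precipitates and lines for 95% counting intervals; dotted lines mark 2-fold. B4galt6, at 6.68 and 7.85, lies off the scale and is left out. All 6 ceramidase and sphingosine phosphate genes lie to the right of 0 in both precipitates.

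De novo synthesis begins with serine palmitoyltransferase, whose core subunits are encoded by Sptlc1 and Sptlc2. Sptlc1 read 54.0 CPM in shSCR IgG, 58.5 in shSCR Caprin-1, 45.8 in shCerS4 IgG and 55.7 in shCerS4 Caprin-1. Sptlc2 read 122, 93.8, 130 and 109 CPM in the same order. Both differed little between the lines. The log2 ratio of shCerS4 over shSCR was -0.07 and -0.24 for Sptlc1 and 0.22 and 0.09 for Sptlc2 in the Caprin-1 and IgG precipitates. The sign of the last value turned (-0.01) when libraries were scaled by the median of ratios.

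Sptssa, a small subunit that activates the enzyme, was the lowest of the 10 de novo genes by ratio. It read 69.2 and 46.8 CPM in the shSCR and shCerS4 IgG libraries and 55.3 and 38.8 CPM in the Caprin-1 libraries. Its log2 ratio was -0.57 (95% interval -0.69 to -0.44) and -0.51 (-0.63 to -0.39). Kdsr, the reductase of the next step, gave -0.31 in Caprin-1 and -0.37 in IgG precipitates. Degs1, the desaturase that turns dihydroceramide into ceramide, held the most reads of this step and gave -0.23 in both.

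The 3 Ormdl genes encode inhibitors of serine palmitoyltransferase and differed in direction. Ormdl1 read 26.5, 18.1, 19.8 and 14.0 CPM in shSCR IgG and Caprin-1 and in shCerS4 IgG and Caprin-1, and was lower in shCerS4 by -0.37 and -0.42 in Caprin-1 and IgG precipitates. Ormdl2 was also lower, at -0.44 and -0.23, and its most abundant row alone turned the IgG value to 0.21. Ormdl3 was higher in shCerS4, at 0.36 (0.26 to 0.47) and 0.42 (0.31 to 0.53), with 56.5, 47.2, 75.6 and 60.9 CPM. Elovl1, which elongates very long acyl chains, gave -0.10 and -0.25, and Cert1, the carrier of ceramide to the Golgi apparatus, gave -0.03 and -0.02 with intervals that include 0.

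All 6 ceramidase and sphingosine phosphate genes compared had ratios and intervals above 0 in both precipitates, where 39.8% of all genes did. Sphk1, the kinase that makes sphingosine 1-phosphate, read 39.9 CPM in shSCR IgG, 63.7 in shSCR Caprin-1, 89.1 in shCerS4 IgG and 134 in shCerS4 Caprin-1. Both shCerS4 libraries were above both shSCR libraries. The log2 ratio was 1.08 (0.99 to 1.16) in the Caprin-1 and 1.16 (1.04 to 1.28) in the IgG precipitates. The most abundant of its 10 rows alone gave 1.58 and 2.23. Sphk2, the second such kinase, was 0.39 and 0.17 higher.

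The genes that remove sphingosine 1-phosphate were higher in the same libraries as the kinases that make it. Sgpl1, the lyase that cleaves it irreversibly, read 127, 82.3, 226 and 179 CPM in shSCR IgG and Caprin-1 and in shCerS4 IgG and Caprin-1. Its log2 ratio was 1.12 (1.05 to 1.19) in the Caprin-1 and 0.83 (0.76 to 0.91) in the IgG precipitates. The most abundant row of Sgpl1 alone gave 0.93 and 1.43. Sgpp1, a phosphatase that returns it to sphingosine, read 43.0, 25.8, 62.3 and 44.5 CPM, with ratios of 0.79 and 0.53. Under trimmed-mean or median-of-ratios scaling Sphk1 (0.94 and 0.95) and Sgpl1 (0.98 and 0.99) were just short of 2-fold in the Caprin-1 precipitates.

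Among the ceramidases, Asah2, the neutral enzyme, read 15.3 CPM in shSCR IgG, 5.88 in shSCR Caprin-1, 32.7 in shCerS4 IgG and 10.9 in shCerS4 Caprin-1. Within either precipitate the shCerS4 level was the higher one, by 0.88 (0.60 to 1.18) in Caprin-1 and 1.09 (0.89 to 1.29) in IgG. Acer3, an alkaline ceramidase, was 0.62 and 0.61 higher, at 23.4, 27.1, 35.8 and 41.6 CPM. Acer2, another alkaline ceramidase, stayed at or below 0.604 CPM, and Sgpp2, the second phosphatase, was at 0 in both IgG libraries and at 0.224 and 0.491 CPM in shSCR and shCerS4 Caprin-1.

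**Figure D2:**
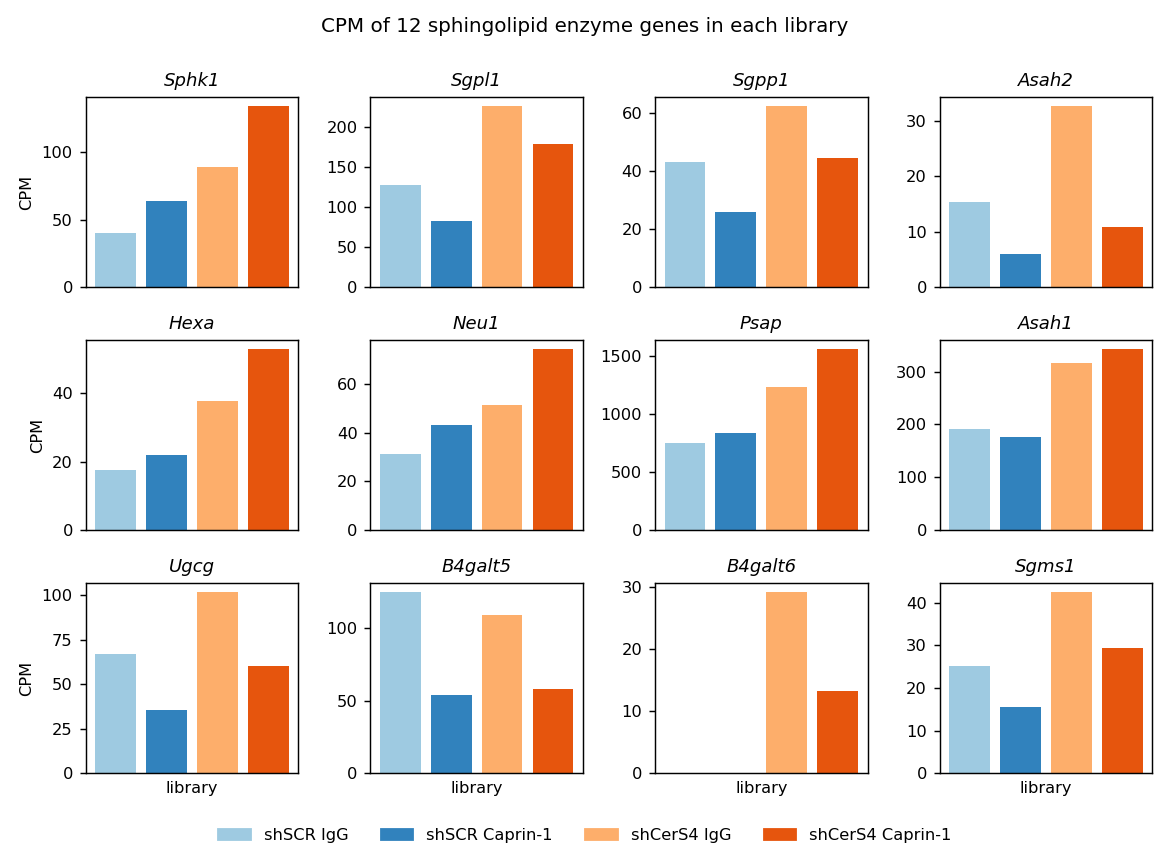
Level in CPM (y axis, linear from 0) of 12 genes in each of the 4 libraries (bars, 1 library each, no error bar). In the panels of Sphk1, Sgpl1, Sgpp1, Hexa, Neu1, Psap, Asah1, B4galt6 and Sgms1 both shCerS4 bars stand above both shSCR bars. B4galt6 reads 0.101 and 0.111 CPM in the shSCR libraries, too low to see.

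The sphingomyelin and ceramide phosphate genes differed in direction. Sgms1, the sphingomyelin synthase of the Golgi apparatus, read 25.1, 15.5, 42.4 and 29.3 CPM in shSCR IgG and Caprin-1 and in shCerS4 IgG and Caprin-1. It was 0.91 (0.74 to 1.09) higher with shCerS4 in the Caprin-1 and 0.75 (0.59 to 0.92) higher in the IgG precipitates. Sgms2, the synthase found also at the plasma membrane, gave -0.02 and -0.09 summed over 7 rows that differed in direction. Its most abundant row alone gave -0.51 and -0.33 and the next row 0.30 and 1.12. Cerk, which phosphorylates ceramide, gave 0.26 and 0.16.

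Of the neutral sphingomyelinases, Smpd4 was the gene furthest below 0 among the 37 in both precipitates. It read 51.1 and 47.1 CPM in the shSCR libraries and 30.6 and 29.3 CPM in the shCerS4 libraries (IgG, then Caprin-1). The log2 ratio was -0.69 (-0.82 to -0.55) in Caprin-1 and -0.74 (-0.89 to -0.60) in IgG. Its 2 most abundant rows disagreed: in the Caprin-1 precipitates one gave -1.51 and the other 0.10, and in the IgG precipitates -0.40 and -1.51. Smpd3 stayed between 0.122 and 0.508 CPM.

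Smpd2, another neutral sphingomyelinase, differed between the precipitates. It read 31.5 CPM in shSCR IgG, 38.4 in shSCR Caprin-1, 29.7 in shCerS4 IgG and 57.4 in shCerS4 Caprin-1. The shCerS4 Caprin-1 library alone was high. The ratio of shCerS4 over shSCR was 0.58 (0.46 to 0.70) in Caprin-1 and -0.08 (-0.25 to 0.08) in IgG.

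B4galt6 gave the largest ratio among the sphingolipid genes. It passed the 5 CPM minimum only through the shCerS4 libraries, so its place among the higher genes is partly set by that filter. It encodes one of the galactosyltransferases that make lactosylceramide, and it held 2 estimated reads (0.101 CPM) in shSCR IgG and 3 (0.111 CPM) in shSCR Caprin-1. The shCerS4 libraries held 573 reads (29.1 CPM) with IgG and 327 (13.3 CPM) with Caprin-1. The log2 ratio was 6.68 (5.34 to 9.19) in Caprin-1 and 7.85 (6.31 to 11.22) in IgG, so its size is known only within wide counting limits. Of the 6 nearest genes compared, 3 on each side along its chromosome, 4 were also at least 2-fold higher in 1 or both comparisons. Over all genes, 6.25% were in the Caprin-1 and 5.69% in the IgG precipitates, and the share in 1 or both was not counted. Dsc2 gave 1.55 and 1.45, Rnf138 1.34 and 1.36, Trappc8 1.23 and 0.64, and Dsg2 1.13 and 0.42 in the Caprin-1 and IgG precipitates, whereas Kctd1 and Rnf125 stayed between -0.09 and 0.17. Among the 6 neighbours of Hexa, Sphk1 and Asah2, 1 each was called (Parp6, Snhg16 and Ranbp6), and 0 of 6 were for Sgpl1. In the Caprin-1 and IgG precipitates these neighbours had medians of 0.65 and 0.52 for Asah2 and 0.39 and 0.39 for Hexa. For Sphk1 they were 0.23 and 0.11, for Sgpl1 0.26 and 0.06, and over all genes 0.15 and 0.10. Sgms1, itself a sphingolipid gene described above (0.91 and 0.75), is the gene compared next to Asah2. The part of chromosomal position in these ratios was not tested.

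B4galt5, the paralog of B4galt6, read 125, 53.8, 109 and 58.0 CPM in shSCR IgG and Caprin-1 and in shCerS4 IgG and Caprin-1. It was 0.11 (0.00057 to 0.21) higher with shCerS4 in Caprin-1 and -0.19 (-0.28 to -0.11) in IgG, and the first value turned to -0.03 under trimmed-mean and -0.02 under median-of-ratios scaling. Ugcg, the glucosylceramide synthase that commits ceramide to this branch, read 67.1, 35.5, 102 and 60.2 CPM. Its ratio was 0.76 (0.64 to 0.88) and 0.60 (0.50 to 0.70). St3gal5, the synthase of ganglioside GM3, was lower with shCerS4, at -0.44 and -0.53, with 43.0, 26.5, 29.7 and 19.5 CPM.

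The remaining genes of this branch had low or small values. Gba2, a glucosylceramidase outside the lysosome, was 0.44 and 0.47 higher at 7.22 to 11.7 CPM, the nearest to the 5 CPM minimum of the genes compared. Gltp, a glycolipid transfer protein, gave -0.11 and -0.21. The 6 glycosphingolipid genes had medians of 0.27 and 0.14, which lay at or below 0 (-0.0012 and -0.20) when a mean of 20 CPM was required, since Gba2 and B4galt6 then dropped out.

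In the lysosomal step, 6 of 10 genes had intervals above 0 in both precipitates, where 39.8% of all genes did. Gm2a and Arsa, 2 of 10, had intervals below 0 in both, close to the 23.8% of all genes. Hexa, the alpha subunit of beta-hexosaminidase, read 17.7 CPM in shSCR IgG, 22.1 in shSCR Caprin-1, 37.8 in shCerS4 IgG and 52.8 in shCerS4 Caprin-1. The ratio was 1.26 (1.12 to 1.40) in Caprin-1 and 1.09 (0.91 to 1.28) in IgG. Both shCerS4 libraries were above both shSCR libraries. Psap, the precursor of the saposin activators and the gene of this step with the most reads, read 749, 840, 1235 and 1562 CPM, with ratios of 0.90 (0.87 to 0.92) and 0.72 (0.69 to 0.75).

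Asah1, the acid ceramidase, lay just inside the 2-fold line. It read 191, 177, 316 and 343 CPM in shSCR IgG and Caprin-1 and in shCerS4 IgG and Caprin-1. The ratio was 0.95 (0.90 to 1.00) in Caprin-1 and 0.73 (0.67 to 0.79) in IgG. Neu1, the lysosomal sialidase, was 0.78 and 0.71 higher at 31.3, 43.1, 51.4 and 74.2 CPM, and Smpd1, the acid sphingomyelinase, 0.57 and 0.66 higher. Galc, which cleaves galactosylceramide, was 0.26 and 0.12 higher.

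Gla and Glb1, which release terminal galactose, were higher with shCerS4 in the Caprin-1 precipitates. Gla read 19.5 CPM in shSCR IgG, 22.2 in shSCR Caprin-1, 19.8 in shCerS4 IgG and 32.4 in shCerS4 Caprin-1, with ratios of 0.54 (0.39 to 0.70) and 0.02 (-0.19 to 0.23). Glb1 read 97.2, 134, 102 and 181 CPM, with ratios of 0.43 (0.37 to 0.49) and 0.07 (-0.02 to 0.16). In the IgG precipitates the sign of both ratios turned under median-of-ratios scaling (-0.08 and -0.02). Gm2a, the activator that presents ganglioside GM2 to beta-hexosaminidase, was lower where Hexa was higher, at -0.59 (-0.69 to -0.50) and -0.28 (-0.39 to -0.17), with 75.0, 95.3, 61.9 and 63.1 CPM. Arsa, the sulfatidase, gave -0.08 and -0.33.

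Many lysosomal genes share a promoter element around an E-box, so the 250 bases before the RefSeq start (build GRCm38.p6) were searched for CACGTG and for TCACGTGA, which holds the first. Both are their own reverse complement, so 1 search covers both strands. An entry was found for 35 of the 37 genes compared, not for Asah1 or B4galt6. CACGTG was in 7 of 35 (20%): Degs1, Sphk1, Sgms2, Smpd2, Gla, Glb1 and Arsa. It was in 10.5% of the 8292 genes compared that had an entry and in 6.86% of all 27025 symbols of the table. TCACGTGA was in Gla alone among the 35 and in 2.01% of the genes compared.

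The windows of the 3 lysosomal genes with a match are shown with the motif in capitals, beside those of Hexa and Neu1, whose ratios were larger and whose windows hold no match. The Gla window lies at chrX:134601006-134601255 on the minus strand, with motifs that begin 228 and 195 bases before the start. The Glb1 window lies at chr9:114400828-114401077 (plus) with its motif at 48 bases, and that of Arsa at chr15:89477425-89477674 (minus) with its motif at 16 bases. Those of Hexa and Neu1 lie at chr9:59539290-59539539 and chr17:34931003-34931252, both on the plus strand. All are written 5′ to 3′ on the strand of the gene. A match describes letters in a window and no binding was measured. The part of the motif in the ratios was not tested.
Gla: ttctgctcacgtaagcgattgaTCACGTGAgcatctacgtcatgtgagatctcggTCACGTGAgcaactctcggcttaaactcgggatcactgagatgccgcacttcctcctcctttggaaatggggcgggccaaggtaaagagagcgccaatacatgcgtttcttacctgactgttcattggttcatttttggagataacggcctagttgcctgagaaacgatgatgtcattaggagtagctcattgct
Glb1: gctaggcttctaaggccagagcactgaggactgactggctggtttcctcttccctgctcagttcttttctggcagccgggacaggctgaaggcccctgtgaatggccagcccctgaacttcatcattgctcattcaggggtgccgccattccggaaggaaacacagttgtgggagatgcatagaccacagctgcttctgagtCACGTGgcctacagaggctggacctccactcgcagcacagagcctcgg
Arsa: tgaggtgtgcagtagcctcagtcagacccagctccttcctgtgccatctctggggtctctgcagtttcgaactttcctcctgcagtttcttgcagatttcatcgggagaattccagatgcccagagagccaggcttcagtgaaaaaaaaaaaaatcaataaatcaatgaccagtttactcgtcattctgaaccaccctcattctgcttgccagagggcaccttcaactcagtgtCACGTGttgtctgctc
Hexa: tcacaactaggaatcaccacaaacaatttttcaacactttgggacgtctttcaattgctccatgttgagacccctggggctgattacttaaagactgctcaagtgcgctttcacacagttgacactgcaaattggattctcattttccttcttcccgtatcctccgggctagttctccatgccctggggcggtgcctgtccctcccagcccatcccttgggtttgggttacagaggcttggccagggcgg
Neu1: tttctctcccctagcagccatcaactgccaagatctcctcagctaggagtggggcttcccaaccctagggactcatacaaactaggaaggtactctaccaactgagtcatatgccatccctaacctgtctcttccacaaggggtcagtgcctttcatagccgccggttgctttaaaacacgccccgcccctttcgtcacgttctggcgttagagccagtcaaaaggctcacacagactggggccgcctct

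The second comparison was Caprin-1 over IgG within each line, which sets the RNA recovered with Caprin-1 against background recovery. As scaled to library totals and summed over rows, no sphingolipid gene was 2-fold higher with Caprin-1 in either line. Over all genes 1.69% (shSCR) and 0.934% (shCerS4) were. Asah2, Sgms2 and B4galt5 were 2-fold lower in shSCR cells, 3 of 37 beside 13.0% of all genes. Asah2, Sgms2 and B4galt6 were in shCerS4 cells, 3 of 37 beside 8.02%. Under median-of-ratios or upper-quartile scaling Sgms2 (-0.98 and -0.97) and B4galt6 (-0.99 in both) ended just short of 2-fold there, while Smpd2 passed 2-fold on the higher side (1.09 and 1.10). Trimmed-mean scaling, which shifted all genes there by 0.13, also left Sgms2 short of 2-fold and took Smpd2 past it. The median was -0.12 for the 37 genes and -0.13 for all genes in shSCR cells, and -0.06 and -0.11 in shCerS4 cells, so the set lay close to all genes. Scaling by the trimmed mean, the median of ratios or the upper quartile shifted all genes by 0.13 to 0.20 on the log2 scale and took the medians of the 37 genes above 0.

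By step, only the lysosomal genes had medians above 0 in both lines. The median over lysosomal genes was 0.29 with shSCR and 0.41 with shCerS4, with 8 of 10 intervals above 0 in each line. Over all genes, 34.2% of intervals lay above 0 in shSCR and 32.6% in shCerS4 cells. Glycosphingolipid genes had medians of -0.46 and -0.68, sphingomyelin genes of -0.55 and -0.45, de novo genes of -0.29 and -0.26, and ceramidase and sphingosine phosphate genes of -0.44 and -0.19, the last of which turned to 0.09 with no filter. These 4 medians lay in different orders in the lines, but in the same order in both with a filter of 20 CPM. The shSCR glycosphingolipid median includes B4galt6 at 2 and 3 reads. It was -0.81 with that filter, which leaves out B4galt6 and Gba2. Single genes of the steps overlapped widely, from -0.93 to 0.35 for de novo genes in shSCR cells. Intervals were above 0 in both lines for 13 of the 37 genes (35.1%, against 26.6% of all genes) and below 0 in both for 16 (43.2%, against 41.2%).

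**Figure D3:**
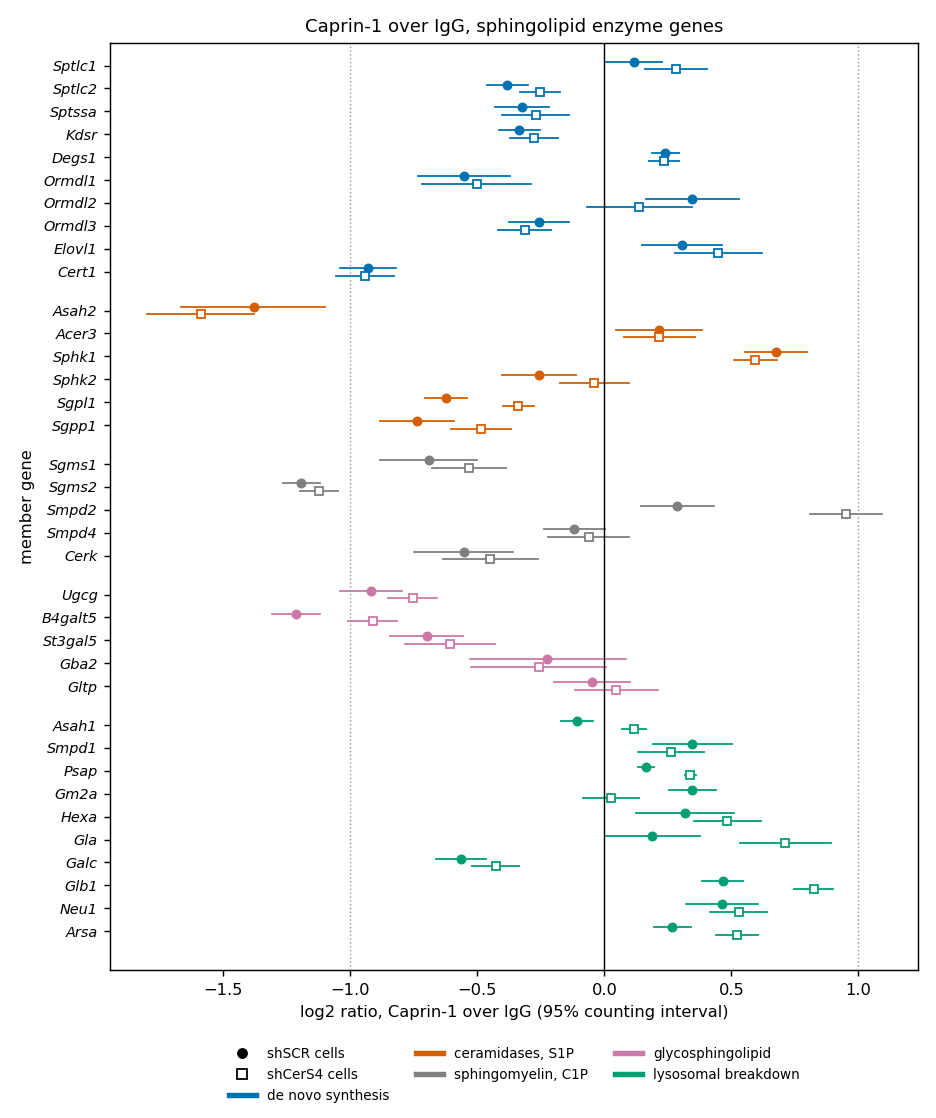
Log2 ratio of Caprin-1 over IgG (x axis) for 36 of the 37 genes (y axis, grouped and coloured by step), with a marker for shSCR and another for shCerS4 cells and lines for 95% counting intervals. B4galt6 is left out for its 2 and 3 reads in shSCR cells. Ratios of lysosomal genes other than Galc and Asah1 lie above 0 in both lines, and Asah2 lies lowest.

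Among the genes above IgG, Sphk1 had the highest ratio in shSCR cells, at 0.67 (0.55 to 0.80), and 0.59 (0.51 to 0.68) in shCerS4 cells. The most abundant of its 10 rows alone gave 1.60 and 0.95, past 2-fold in shSCR cells. Sphk1 was the only ceramidase or sphingosine phosphate gene besides Acer3 (0.21 and 0.22) above 0 in both. Glb1 gave 0.47 (0.39 to 0.55) and 0.82 (0.75 to 0.90), Neu1 0.46 and 0.53, Hexa 0.32 and 0.48, and Arsa 0.27 and 0.52. Psap was 0.16 and 0.34 above IgG. Of the de novo genes, Sptlc1 (0.11 and 0.28), Degs1 (0.24 and 0.23) and Elovl1 (0.30 and 0.45) had intervals above 0 in both lines. Ormdl2 was also above IgG (0.35 and 0.14), with an interval in shCerS4 cells that includes 0.

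Asah2 had the lowest ratio in both lines, at -1.38 (-1.67 to -1.10) in shSCR and -1.59 (-1.80 to -1.38) in shCerS4 cells. Sgms2 read 210 and 91.8 CPM with IgG and Caprin-1 in shSCR cells and 198 and 90.8 CPM in shCerS4 cells. Its ratios were -1.19 (-1.26 to -1.12) and -1.12 (-1.20 to -1.05). B4galt5 gave -1.21 (-1.31 to -1.12) in shSCR cells and -0.91 (-1.01 to -0.82) in shCerS4 cells. B4galt6 gave -1.13 (-1.34 to -0.94) in shCerS4 cells, and its 2 and 3 reads in shSCR cells allow no fold there.

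Just inside the 2-fold line were Cert1 and Ugcg. Cert1 read 80.6 and 42.3 CPM with IgG and Caprin-1 in shSCR cells and 79.7 and 41.5 CPM in shCerS4 cells, which gave -0.93 (-1.04 to -0.82) and -0.94 (-1.06 to -0.83). Ugcg gave -0.92 and -0.75. Sgms1 gave -0.69 and -0.53, so the carrier of ceramide and both of these Golgi synthases were lower with Caprin-1 than with IgG in each line.

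The ratio over IgG ran with the length of the gene on the chromosome. Spearman's rho between the genomic span and the Caprin-1 over IgG ratio was -0.59 in shSCR and -0.58 in shCerS4 cells over the 37 genes. Over the 10277 genes compared with a position it was -0.54 and -0.48. These points share their libraries and are a description. The median span was 20.01 kb for lysosomal genes, 12.2 kb for de novo genes, 35.3 kb for ceramidase and sphingosine phosphate genes, 42.0 kb for glycosphingolipid genes and 47.2 kb for sphingomyelin genes, and 23.5 kb over all genes. Within the set, Sphk1 spans 5.84 kb, Asah2 118 kb, Sgms2 172 kb and Cert1 97.5 kb, and Glb1 (73.3 kb) and Acer3 (107 kb) lay above IgG despite long spans. The part of gene length in the ratios over IgG was not tested.

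**Figure D4:**
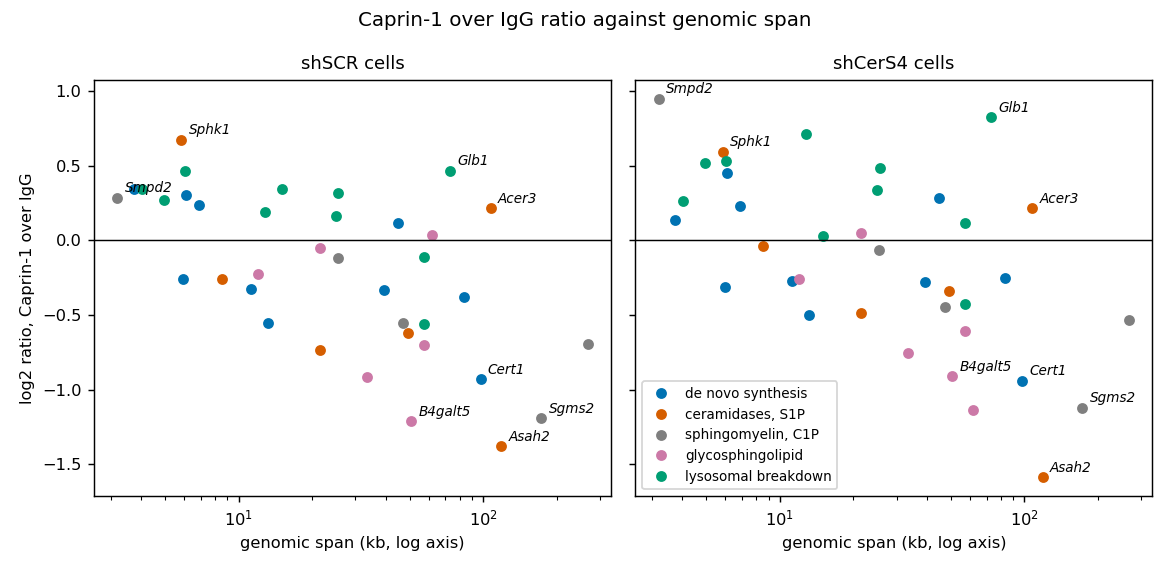
Log2 ratio of Caprin-1 over IgG (y axis) against genomic span in kb (x axis, logarithmic) for 37 genes in shSCR cells (left) and shCerS4 cells (right), 1 point per gene, coloured by step. Ratios are lower at longer spans (rho -0.59 and -0.58), with Glb1 and Acer3 above 0; the shSCR point of B4galt6 rests on 2 and 3 reads.

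The third comparison asked how far the ratio over IgG differed between the lines, shCerS4 minus shSCR, which equals the difference between the shCerS4 over shSCR ratios of both precipitates. No sphingolipid gene was counted as 2-fold higher or lower, where 0.632% of all genes were higher and 0.350% lower. B4galt6 gave -1.17 (-3.52 to 1.18), an interval that includes 0, with 2 and 3 reads in shSCR cells. The median difference was 0.10 for the 37 genes and 0.04 for all genes. Intervals lay above 0 for 14 of the 37 genes and below 0 for 1, against 3027 and 2153 of the 10283 genes. The count depended on the scaling: it was 8 above and 3 below with the trimmed mean, 9 and 1 with the median of ratios or the upper quartile, and 14 and 6 with the most abundant row of each gene.

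Smpd2 had the largest positive difference, 0.66 (0.46 to 0.86), followed by Gla at 0.52 (0.27 to 0.78) and Glb1 at 0.36 (0.25 to 0.47). Smpd2 lay above its IgG level by 0.29 in shSCR and 0.95 in shCerS4 cells, and Gla by 0.19 and 0.71. B4galt5 differed by 0.30 (0.17 to 0.43), Sgpl1 by 0.29 (0.18 to 0.39), Sgpp1 by 0.25 (0.07 to 0.44) and Asah1 by 0.22 (0.15 to 0.30). For Sgpl1 the most abundant row alone gave -0.50, so its sign rests on the sum over its 3 rows. Gm2a was the single gene with an interval below 0, at -0.32 (-0.46 to -0.18). The lysosomal genes had a median difference of 0.17 and the de novo genes of 0.05.

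**Figure D5:**
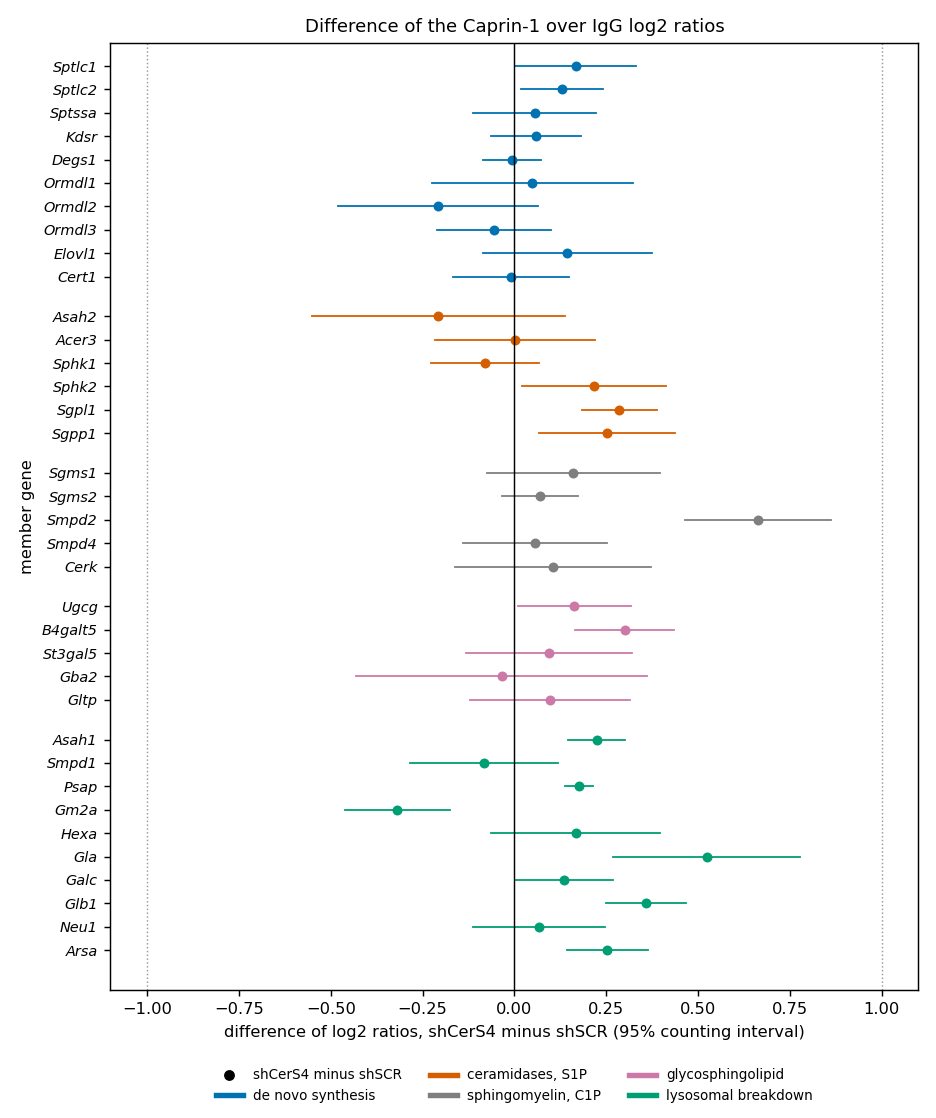
Difference of the log2 ratios over IgG, shCerS4 minus shSCR (x axis), for 36 of the 37 genes (y axis, grouped and coloured by step), with lines for 95% counting intervals. B4galt6 is left out for its low reads in shSCR cells. Smpd2, at 0.66, lies furthest right and Gm2a, at -0.32, furthest left.

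Of 57 other genes of sphingolipid metabolism that were listed, 41 had rows and 36 were compared. With shCerS4, 1 was 2-fold higher and 3 were lower in each precipitate, and with Caprin-1 over IgG 1 was higher and 4 were lower in shSCR cells and 0 and 3 in shCerS4 cells. Over all genes the shares were 6.25% higher and 4.95% lower with shCerS4 for Caprin-1, 5.69% and 5.34% for IgG, 1.69% and 13.0% over IgG in shSCR cells, and 0.934% and 8.02% in shCerS4 cells. These few genes are read as single values. Scarb2, the receptor that carries glucocerebrosidase to the lysosome, read 45.6, 31.0, 157 and 110 CPM in shSCR IgG and Caprin-1 and in shCerS4 IgG and Caprin-1. Its ratio was 1.82 in Caprin-1 and 1.78 in IgG precipitates. Grn, the precursor of lysosomal granulins, was lower at 496, 748, 192 and 279 CPM, with -1.42 and -1.37.

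Both remaining genes that were 2-fold lower with shCerS4 elongate acyl chains. Elovl6 read 154, 55.4, 67.4 and 25.5 CPM, with -1.12 in Caprin-1 and -1.19 in IgG precipitates, and it was also below IgG by -1.48 and -1.40 in shSCR and shCerS4 cells. Elovl4 gave -2.01 and -1.10 at 2.31 to 9.36 CPM. With Caprin-1 over IgG, Samd8, a relative of the sphingomyelin synthases, gave -1.80 and -1.27 in shSCR and shCerS4 cells. St3gal1, a sialyltransferase, gave -1.46 and -1.44, and Plekha8, a carrier of glucosylceramide, -1.06 and -0.72. Tecr, the reductase that completes acyl chain elongation, was the 1 gene at least 2-fold higher with Caprin-1, at 1.02 in shSCR and 0.96 in shCerS4 cells. S1pr2, a receptor of sphingosine 1-phosphate, gave -0.27 and -0.22 with shCerS4 in Caprin-1 and IgG precipitates.

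Several genes overlap others with rows, and the strand of the reads is not given in the sources used here, so reads of both partners cannot be told apart there. Among the sphingolipid genes these are Ormdl2 (Dnajc14), Elovl1 (Cdc20), Asah1 (Frg1), Sphk2 (Dbp and Rpl18), Sgms1 (2700046G09Rik), Gba2 (Creb3 and Rgp1), Glb1 (Tmppe), Arsa (C230037L18Rik) and Sgpp2 (Farsb).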

How the data were processed

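Libraries of polyadenylated RNA from 4 precipitates were sequenced, 1 per group. Reads were aligned to mm10 with STAR in Partek, per the submitters' processing notes, which give no version. The deposited table holds CPM values per transcript row with 0.0001 added by the authors to each, although its name calls them counts and the design had assumed counts. The added value was subtracted and 24393 rows were summed into 12967 symbols. Most low gene values are whole multiples of what a single read is worth, and this spacing gave depths of 19.8, 27.0, 19.7 and 24.7 M reads (shSCR IgG, shSCR Caprin-1, shCerS4 IgG, shCerS4 Caprin-1). Of gene values under 40 CPM, 79.9 to 81.2% lay within 0.05 reads of a whole number. Of row values under 40 CPM, 28.8 to 31.4% did, so most are not whole reads. How reads were divided among the rows of a gene was not tested, which limits the ratios given for single rows. Rows carry no transcript identifiers and the lowest maximum of a row over the libraries was 10.02 estimated reads.

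Log2 ratios used library totals and 0.5 added reads, with exact binomial 95% counting intervals, for 10283 symbols with a mean of at least 5 CPM. Intervals of the difference between ratios used a normal approximation instead. Reads are not independent molecules, so intervals cover counting error only. CPM is not corrected for length, so levels are not compared between genes. No test was made, for want of replicates. Positions and promoters came from RefSeq tables of GRCm38.p6. Genes named are all those of the list, and other pathway genes where called. Members, lists and rules were chosen with earlier results of these data known. Alternatives were scaling by upper quartile, trimmed mean or median of ratios, totals without the 50 most abundant genes, a filter of 1 or 20 CPM or none, 5 added reads, the most abundant row per symbol, no interval and another grouping of 2 genes. Python 3.11.15, numpy 2.4.6, scipy 1.17.1, pandas 2.3.3 and matplotlib 3.10.9 were used. The calculations were tested on simulated data.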

Additional observations from a re-analysis of the deposited data

Results flagged for a closer look

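Among the sphingolipid genes, 2 had opposite directions under the same contrast, each with an interval that excludes 0, and the differences were not tested across replicates. B4galt5 was higher with shCerS4 in the Caprin-1 precipitates (0.11) and lower in the IgG precipitates (-0.19), and the first value turned negative under trimmed-mean and median-of-ratios scaling. Asah1 was below IgG in shSCR cells (-0.11) and above it in shCerS4 cells (0.12), and the first value turned positive (0.07, 0.09 and 0.07) under upper-quartile, trimmed-mean and median-of-ratios scaling.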

How the results depend on the processing

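All 14 ratios counted as 2-fold kept their direction under every alternative that gave them a value, and 7 stayed at least 2-fold in each. The kept direction was largely set in advance. Filters do not alter a ratio, the scalings shifted all genes by at most 0.20, and genes of 1 row keep their value with the most abundant row. With shCerS4 over shSCR, trimmed-mean and median-of-ratios scaling left 2 genes called in the Caprin-1 precipitates, with medians of 0.22 and 0.24, and median-of-ratios scaling and the 20 CPM filter left 2 in the IgG precipitates. Among all 10283 genes, 643 were higher in the Caprin-1 precipitates, and 442 and 458 under trimmed-mean and median-of-ratios scaling. In the IgG precipitates 585 were, 450 under median-of-ratios scaling and 297 of 7727 with the 20 CPM filter. For Caprin-1 over IgG, upper-quartile, trimmed-mean and median-of-ratios scaling gave medians of 0.061, 0.082 and 0.056 in shSCR cells and 0.086, 0.072 and 0.080 in shCerS4 cells. With shCerS4 over shSCR the most abundant row alone gave 4 genes higher and 1 lower (Smpd4) in the Caprin-1 and 5 higher in the IgG precipitates. Of all 10037 genes compared that way, 727 were higher and 534 lower in the Caprin-1 and 724 higher in the IgG precipitates. For Caprin-1 over IgG the most abundant row alone gave 5 called genes in shSCR cells (Sphk1 on the higher side), beside 265 higher and 1420 lower of all 10037. It gave a median of -0.26 in shCerS4 cells, where the 20 CPM filter left 1 called and no filter gave 6. In shCerS4 cells 53 of all 7727 genes were higher and 571 lower with that filter, and 356 and 1359 of 12967 without one. Upper-quartile and median-of-ratios scaling each gave 1 higher (Smpd2) and 1 lower (Asah2) there. Of all 10283 genes, 243 and 229 were then higher and 537 and 549 lower. Trimmed-mean scaling also took Smpd2 past 2-fold higher in shCerS4 cells. For the difference of the ratios, no filter, the most abundant row and 2-fold without an interval each gave 1 called gene (Smpd3, Smpd4 and B4galt6). With no filter 457 of all 12967 genes were higher and 311 lower, and with the most abundant row 278 and 174 of 10037. These alternatives changed the scale, the rows or the genes admitted, and no cause beyond that was tested. With shCerS4 over shSCR in Caprin-1 precipitates, the median of all genes shifted by -0.11, -0.14 and -0.13 under upper-quartile, trimmed-mean and median-of-ratios scaling and by -0.04 with totals without the 50 most abundant genes. A scaling moves all genes alike, so it cannot change the distance of the sphingolipid genes from all genes. Counting Asah1 and Smpd1 with ceramidases and sphingomyelin moved the lysosomal median with shCerS4 in Caprin-1 precipitates from 0.56 to 0.49. Depth limits B4galt6 in shSCR cells, Acer2, Sgpp2 and Smpd3. No paired analysis was possible because each group holds 1 library and replicate numbers pair nothing.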
